A study of Mus musculus with 2 samples.

Results

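The genes described here build, cross-link, cap and take apart filaments of actin, and 59 of them were listed by name. They were followed in bone-marrow-derived macrophages of C57BL6 mice, grown in RPMI medium with serum and macrophage colony-stimulating factor (MCSF), a cytokine that drives marrow precursors to become macrophages. The control cells were left without lipopolysaccharide (LPS), a glycolipid from the surface of Gram-negative bacteria that macrophages sense through Toll-like receptor 4. The treated cells received LPS, at a dose and for a time not given in the sources used here, and both groups shared strain, medium and cytokine. Total RNA of each group was hybridized to 1 Affymetrix Mouse Genome 430 2.0 array, so there were 2 arrays in all, without replicates, and nothing could be tested. The differences given are those between these 2 arrays, have no replicate check, and are limited in precision by that number. A probe set was used when the platform annotation gave it exactly 1 gene and that gene was on the list. Of the 59 genes, 54 had such probe sets, 137 in all, out of 18193 genes on the array, and Diap1 and Diap2 were found under their current symbols Diaph1 and Diaph2. Actr2, Arpc1b, Arpc3, Cyfip1 and Fmnl3 had none and were not analysed here.

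Actin monomers assemble into filaments only after nucleation. The Arp2/3 complex, switched on by proteins of the WASP and WAVE families, starts branches from existing filaments, whereas formins start and lengthen unbranched filaments and Ena/VASP proteins hold off capping at the growing end. Fascin, plastins and alpha-actinins tie filaments into bundles, capping proteins stop their growth, cofilin and gelsolin cut them, and coronins help to take branches down. In macrophages these proteins drive ruffling, phagocytosis, podosomes and migration, and fascin is also known as a protein of mature dendritic cells.

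A gene was counted as measured when its signal reached the floor, the median signal of the array, on at least 1 array. This floor lay at 35.1 signal units for the control array and at 26.7 for the LPS array. Lower signals were raised to it before ratios were formed, and such a fold is given as at least N-fold. The probe set of highest mean log2 signal stands for its gene, and the ratio is log2 of the LPS signal minus log2 of the control signal, as deposited. By this measure 53 of the 54 genes were measured. Enah, an Ena/VASP protein, was under the floor on both arrays with all 6 probe sets.

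Most of the actin genes, like most of all measured genes, differed less than 2-fold between the arrays, while a few were far higher with LPS. Of 53 measured genes, 7 lay 2-fold or more higher with LPS, 8 lay 2-fold or more lower and 38 lay within 2-fold. Among all 11722 measured genes, 8.22% were higher and 26.2% lower by this size. The 7 higher genes were Fscn1, Marcksl1, Fmnl2, Vasp, Dbnl, Daam1 and Ezr. The 8 lower genes were Coro1c, Wipf1, Fmnl1, Abi3, Tpm1, Vill, Arpc1a and Arpc5l. Their folds ran from 3.31 to at least 114 among the higher genes and from 2.01 to 4.01 among the lower ones. In RNA of a whole culture, fewer cells of a kind and less RNA per cell cannot be told apart.

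The median log2 ratio was -0.03 over the 53 actin genes and -0.42 over all measured genes. Ratios were above 0 in 24 of the 53, or 45.3%, against 28.9% of all measured genes. When every ratio was centred on the median of all measured genes, 12 actin genes were higher by 2-fold or more and 3 were lower, against 13.1% and 15.3% of all genes. The 5 genes added on the higher side were Coro2a, Evl, Marcks, Capza2 and Swap70, and the 3 that stayed lower were Coro1c, Wipf1 and Fmnl1. With quantile normalization 7 actin genes were higher and 4 lower, against 11.7% and 15.6% of all genes, and the 4 were Coro1c, Wipf1, Actn4 and Coro1a. With loess 8 were higher and 2 lower, against 13.8% and 12.8%, and the 2 were Coro1c and Wipf1. With scaling to the poly-A control RNAs 9 were higher and 3 lower, against 1290 and 2133 of all 11722 genes. The shares of higher actin genes with quantile normalization, 7 of 53, and with loess, 8 of 53, thus lay near those of all genes. These scalings moved the median of all genes by between 0.29 and 0.43, and scaling to the hybridization controls moved it by 0.05.

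**Figure D1:**
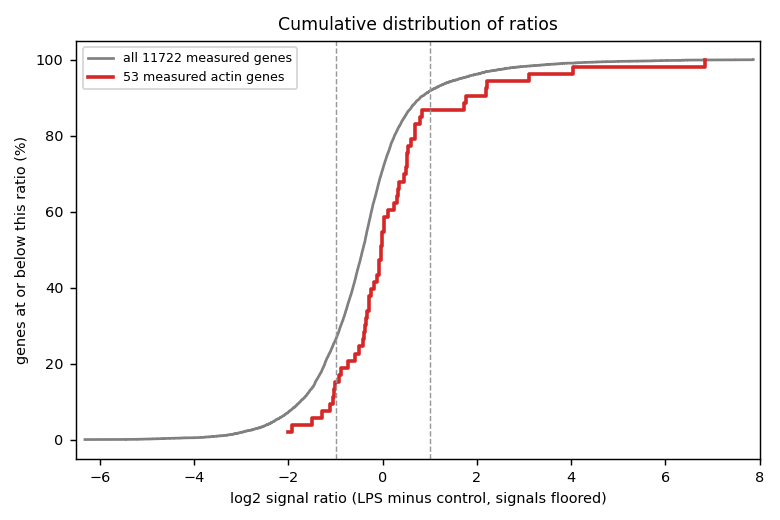
Cumulative percentage of genes (vertical axis) at or below each log2 ratio of LPS over control signal (horizontal axis), for all 11722 measured genes (grey) and the 53 measured actin genes (red), with dashed lines at 2-fold. The red curve crosses its middle at -0.03 and the grey one at -0.42, and the right-hand end of the red curve is made of the 7 genes past 2-fold.

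The actin genes were bright, with a median mean log2 signal of 10.65 against 7.67 for all measured genes, and the array-wide shift differed with brightness. At a mean log2 signal of 11 to 14 lay 24 actin genes, with a median ratio of 0.0019 against -0.08 for all 786 genes there. Of these 24, 2 were higher and 0 lower by 2-fold or more, against 12.8% and 4.96% of all genes in that range. Between 9 and 11 there were 18 actin genes with a median of -0.08, against -0.23 for all genes, and 2 were higher and 4 lower, against 15.1% and 17.8%. Between 7 and 9 there were 8 with a median of -0.29, against -0.61 for all genes, and 3 were higher and 2 lower, against 7.88% and 33.4%. Below 7 there were 3 with a median of -1.05, against -0.47, and 0 were higher and 2 lower (Vill and Fmnl1), against 4.07% and 28.3%. The actin median lay above that of all genes in the upper 3 ranges, which hold 50 of the 53 genes, and below it in the lowest.

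**Figure D2:**
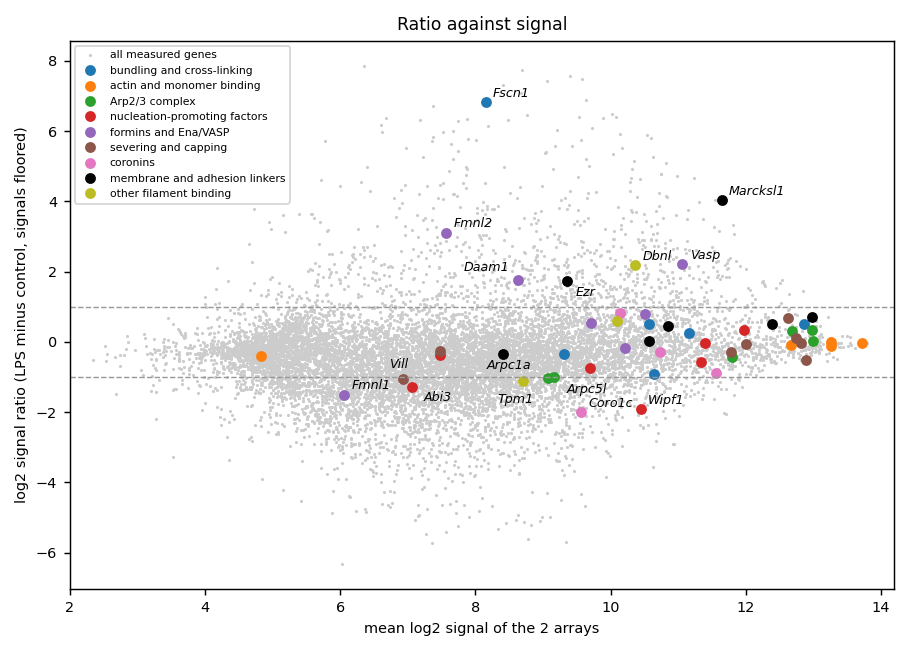
Log2 ratio of LPS over control signal (vertical axis) against the mean log2 signal of both arrays (horizontal axis) for all measured genes (light grey points) and the actin genes (coloured by role), with dashed lines at 2-fold and names for the 15 actin genes past it. The brightest actin genes sit near 0, and Marcksl1 stands at 4.04 among genes of high signal.

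Promoter sequence is shown for the genes with the highest ratios, Fscn1 and Marcksl1, and for a higher and a lower gene whose promoter held a searched motif, Ezr and Coro1c. Each run is the 250 bases before the annotated start, 5′ to 3′ on the gene's strand, from RefSeq on GRCm38.p6, and the capitals mark a motif match.
Fscn1, chr5:142960105-142960354, plus strand: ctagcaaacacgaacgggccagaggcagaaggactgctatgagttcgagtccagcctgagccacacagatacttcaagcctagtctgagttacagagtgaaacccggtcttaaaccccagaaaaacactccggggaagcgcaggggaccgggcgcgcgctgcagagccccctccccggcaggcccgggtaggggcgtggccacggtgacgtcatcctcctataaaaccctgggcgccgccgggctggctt
Marcksl1, chr4:129513331-129513580, plus strand: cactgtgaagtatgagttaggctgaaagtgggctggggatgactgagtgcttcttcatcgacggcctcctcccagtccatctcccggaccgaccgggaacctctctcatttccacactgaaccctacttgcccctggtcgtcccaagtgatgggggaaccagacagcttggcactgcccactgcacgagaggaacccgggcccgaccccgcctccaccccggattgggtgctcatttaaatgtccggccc
Ezr, chr17:6782781-6783030, minus strand: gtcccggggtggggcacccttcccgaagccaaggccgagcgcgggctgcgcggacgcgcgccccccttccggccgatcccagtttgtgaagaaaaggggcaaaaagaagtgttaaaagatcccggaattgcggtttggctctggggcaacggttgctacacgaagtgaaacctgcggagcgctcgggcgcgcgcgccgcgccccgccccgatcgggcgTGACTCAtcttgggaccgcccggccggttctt
Coro1c, chr5:113908707-113908956, minus strand: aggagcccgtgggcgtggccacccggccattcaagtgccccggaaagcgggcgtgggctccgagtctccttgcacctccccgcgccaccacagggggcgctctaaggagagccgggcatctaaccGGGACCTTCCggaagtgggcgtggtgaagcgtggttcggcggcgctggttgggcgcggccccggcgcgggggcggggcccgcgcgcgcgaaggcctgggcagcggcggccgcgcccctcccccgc
Of the 59 genes, 51 had 1 or more promoters in that table. The search covered both strands for the AP-1 motif TGANTCA, the NF-kB consensus site and the CArG box bound by serum response factor, and overlapping matches of one motif were counted as 1 promoter. The promoter of Ezr held the AP-1 match TGACTCA, beginning 32 bases before the start, and that of Coro1c the NF-kB match GGGACCTTCC, beginning 125 bases before it. Of the 7 higher genes, which had 8 promoters in the table, 1 held an AP-1 match, 0 an NF-kB match and 0 a CArG match. The 6 lower genes with a promoter in the table had 8 promoters there. Of these genes 2 held an NF-kB match, Coro1c and Fmnl1, and 0 an AP-1 or CArG match. Of the 33 genes within 2-fold with a promoter there, 6 held an NF-kB match, 2 an AP-1 match and 2 a CArG match. By promoter, the NF-kB match was in 2 of 8 of the lower genes and in 7 of 45 of those within 2-fold. Over all 32851 promoters, 7.25% held the NF-kB match, 6.75% the AP-1 match and 1.47% the CArG box. Among all genes at least 2-fold higher, 12.1% of 1020 promoters held the NF-kB match, and among those at least 2-fold lower 8.70% of 3277. A match is a description of these letters, and its absence says only that they are not in this window.

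Among the bundling and cross-linking proteins the filament bundler gene Fscn1 (fascin) stood apart. Its brightest probe set read 20.4 in control cells, below the floor, and 3988 with LPS, at least 114-fold higher, a bound set by the floor. The second probe set, on both arrays above the floor, had 155 and 493, a 3.17-fold difference. The remaining ones had 5.46 and 105, and 3.02 and 57.7, so that their ratios of at least 1.58 and 0.72 are bounds set by the floor. All 4 were higher on the LPS array. Only the second had a ratio free of the floor, 1.67, against at least 6.83 for the brightest. The bounds of the dimmer ones do not give a size. The ratio of Fscn1, 6.83 by the brightest probe set, fell to 5.46 with a higher floor (65th percentile) and rose to 7.61 with a lower one (35th percentile). The first and second probe sets had close mean log2 signals, 8.16 and 8.11. With quantile normalization the second became the brightest and stood for the gene, at 2.06. With plain probe sets alone the second again stood for it, at 1.67. The median of its probe sets, which includes bounds, was 1.62.

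None of the other 5 bundlers and cross-linkers passed 2-fold, beside 8.22% higher and 26.2% lower among all genes. Lcp1, the plastin of blood cells, had signals of 6267 and 8924 by its brightest probe set, a ratio of 0.51, and 3595 and 7872 by the other, a ratio of 1.13. Actn1 and Actn4, the non-muscle alpha-actinins, had opposite signs. Actn1 read 1277 in control cells and 1826 with LPS, with all 3 probe sets between 0.35 and 0.63. Actn4 had 2201 and 1165, a ratio of -0.92, and passed 2-fold with quantile normalization. Their ratios lay 1.43 apart. Flna, the cross-linker filamin A, was at 0.25 and Pls3, a second plastin, at -0.35, which turns positive under median centring and loess.

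**Figure D3:**
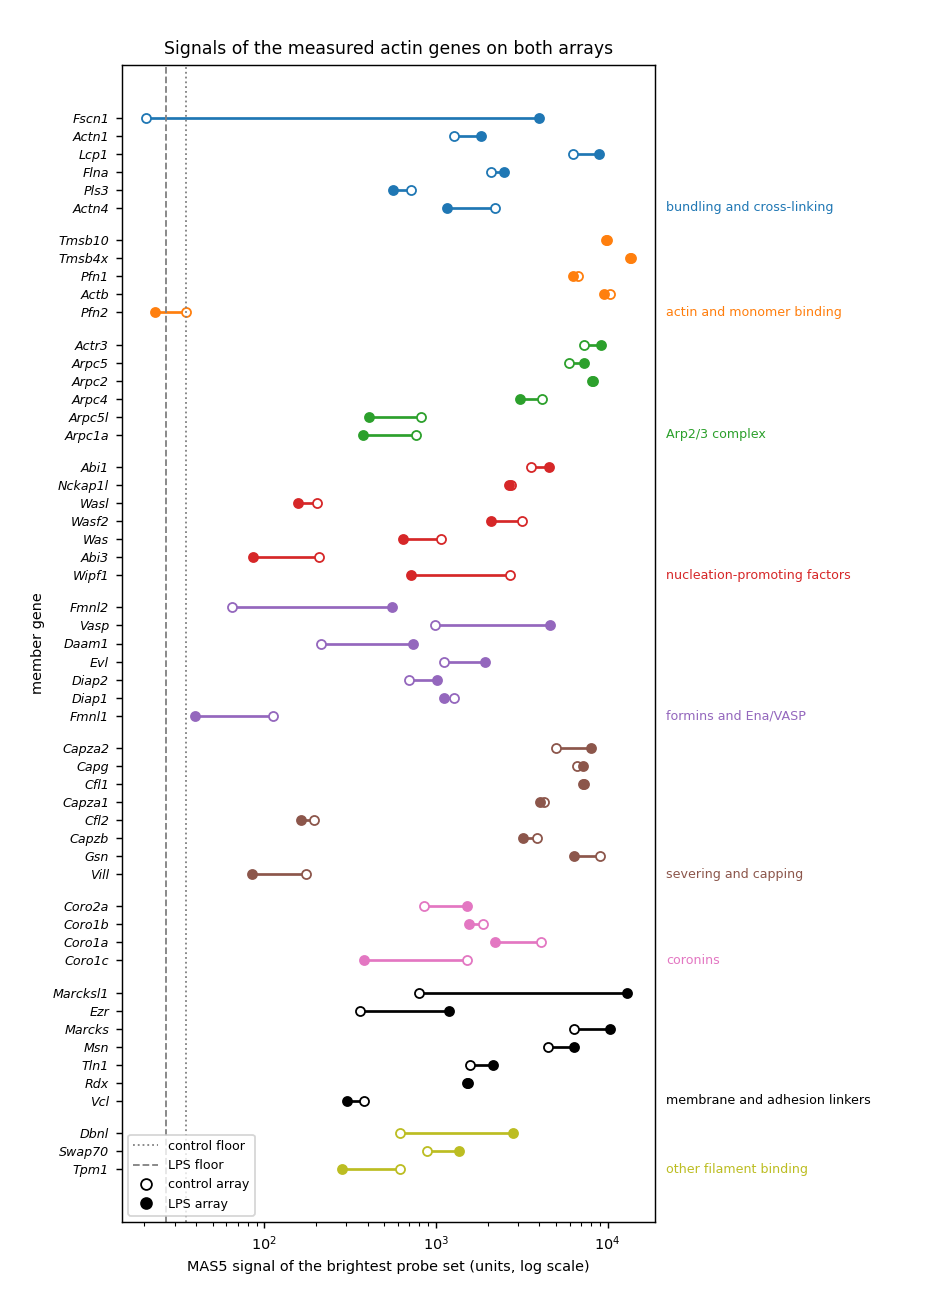
MAS5 signal (horizontal axis, log scale) of the brightest probe set of each of the 53 measured actin genes (vertical axis, by role) on the control array (open circles) and the LPS array (filled circles), with the floors as dotted and dashed lines. Fscn1 runs from 20.4 to 3988 and Marcksl1 from 791 to 13020, whereas the circles of Actb, Tmsb4x, Tmsb10 and Cfl1 nearly coincide.

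Actin itself and the proteins that bind its monomers hardly differed. Actb, which encodes beta-actin, had signals of 10292 and 9465 (ratio -0.12), and the 3 beta-actin control probe sets of the array lay between -0.11 and -0.01. Pfn1, the profilin that feeds monomers to growing ends, had 6685 and 6311. Tmsb4x and Tmsb10, the thymosins that hold monomers in reserve, had 13675 and 13448, and 9917 and 9804. These signals lie near the top of the scale, since the highest signal of any probe set was 14444 in control cells and 14015 with LPS. All 5 genes of this group had ratios between -0.40 and -0.02, and all 5 turn positive under median centring. The lowest, Pfn2, had signals of 35.1, at the floor, and 22.9, under it.

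The Arp2/3 complex was divided between bright subunits within 2-fold and dimmer ones at the lower threshold. Of the 6 measured subunit genes, none was higher and 2 were lower, beside 8.22% higher and 26.2% lower among all genes. With so few genes the counts stand near those shares. The median ratio was -0.20, above the -0.42 of all genes, and after median centring 0 were lower, beside 15.3% of all genes. Actr3, which encodes the actin-like subunit Arp3, had 7255 and 9092, with 3 probe sets between 0.10 and 0.33. Arpc5 had 5921 and 7261, Arpc2 had 8079 and 8193, and Arpc4 had 4140 and 3083. Arpc2 at 0.02 turns negative under loess and quantile normalization.

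The 2 lower subunit genes encode alternative forms of subunits. Arpc1a, the counterpart of Arpc1b, read 769 in control cells and 376 with LPS, 2.05-fold lower. Arpc5l, the counterpart of Arpc5, had 816 and 406, 2.01-fold lower, while its other measured probe sets were at -0.58 and -0.33. Both were within 2-fold under all 5 scalings tried. The ratio of Arpc5 exceeded that of Arpc5l by 1.30, and by 0.86 in the lowest alternative.

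Genes of the factors that switch on the Arp2/3 complex included none that was higher by 2-fold. Of 7 measured, 2 were lower by that size, near the share of all genes, 26.2%, while 8.22% of all genes were higher. The median ratio was -0.59, against -0.42 for all genes. After median centring 1 was lower, beside 15.3% of all genes. Wipf1, which encodes the WASP-interacting protein WIP that stabilizes WASP, read 2710 in control cells and 718 with LPS, 3.78-fold lower, and its other probe set had 1166 and 469, a ratio of -1.31. It was past 2-fold in all 11 alternatives. Was, the gene of WASP itself, had 1071 and 645, a ratio of -0.73.

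Members of the WAVE complex differed from one another. Wasf2, the WAVE2 gene, had 3161 and 2104 (-0.59), with the other probe set at -0.60. Nckap1l, which encodes the blood-cell subunit HEM1, had 2723 and 2662, and its ratio of -0.03 turns positive under median centring, loess and both control scalings. Abi1 had 3589 and 4548, with 3 probe sets between 0.16 and 0.34. Abi3, a relative of Abi1, had 209 and 86.3, 2.42-fold lower, and was within 2-fold under quantile normalization, median centring, loess and poly-A scaling. Outside the WAVE complex, Wasl, the N-WASP gene, was at -0.37 but positive under loess, median centring and quantile normalization.

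The formins and Ena/VASP genes held 3 of the 7 higher genes. Of 7 measured, 3 were higher and 1 lower, beside 8.22% and 26.2% of all genes, with a median ratio of 0.79. Median centring made this 4 and 1, beside 13.1% and 15.3%. Fmnl2, a formin of lamellipodia and filopodia, read 64.8 in control cells and 557 with LPS by its 1 probe set, 8.60-fold higher. Fmnl1, the formin best known from leukocytes, had 112 and 39.7, 2.83-fold lower, also with 1 probe set, and was within 2-fold under quantile normalization, loess and the floor at the 65th percentile. The ratios of these relatives lay 4.60 apart, and 3.52 apart in the lowest alternative.

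Daam1, a formin of Wnt planar polarity signalling, had 215 and 734, 3.41-fold higher. Its second probe set had 36.5 and 126, with nearly the same ratio (1.77 and 1.78). Diap1 and Diap2, the diaphanous formins, were within 2-fold. Diap1 had 1269 and 1117 (-0.19, positive under median centring and poly-A scaling), and Diap2 had 696 and 1016 (0.55), with 0.52 for its other probe set.

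Vasp, whose protein speeds filament growth at leading edges, read 993 in control cells and 4615 with LPS, 4.65-fold higher, by its 1 probe set. Its relative Evl had 1109 and 1919, a ratio of 0.79, and its 4 probe sets ranged from 0.45 to 1.06. Enah, the third relative, was not measured. Fmnl2, Daam1 and Vasp were past 2-fold in all 11 alternatives.

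Severing and capping genes were within 2-fold except Vill. Of 8 measured, none was higher and 1 was lower, beside 8.22% and 26.2% of all genes, and the median was -0.16. Median centring made this 1 and 0, beside 13.1% and 15.3%. Vill, a villin-like protein of the gelsolin family, had 176 and 84.9, 2.07-fold lower by its 1 probe set, and was within 2-fold in 5 of 10 alternatives. Cfl1, the cofilin gene of most tissues, had 7328 and 7177, a ratio of -0.03 that turns positive under median centring and both control scalings. Gsn, the gelsolin gene, had 9035 and 6368, and its 4 bright probe sets lay between -0.60 and -0.50. Another Gsn probe set, with 86.9 and 14.9, was under the floor with LPS, at least 3.26-fold lower.

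The capping protein that closes filament ends is a pair of an alpha and a beta subunit. Capza2, 1 of the alpha subunits, had 4975 and 8028 (0.69), with its other probe set at 0.64. Capza1, the other alpha subunit, had 4234 and 4027 (-0.07), which turns positive under median centring and poly-A scaling. Capzb, the beta subunit, had 3899 and 3199, with 3 probe sets between -0.37 and -0.29, and the brightest of them turns positive under the same scalings. Capg, a macrophage capping protein, had 6603 and 7141 by its brightest probe set (0.11, negative under quantile normalization). Its other, of the class that can cross-hybridize, had 207 and 74.7, a ratio of -1.47.

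Of the 4 coronins Coro1c had the lowest ratio. Its brightest probe set read 1518 in control cells and 379 with LPS, 4.01-fold lower, and the others had 842 and 226, and 105 and 37.5. The latter had ratios of -1.90 and -1.49, so all 3 lay past 2-fold, as did Coro1c in all 11 alternatives. Coro1a, the leukocyte coronin, had 4090 and 2212 (-0.89), with its next probe set at -0.99, and passed 2-fold with quantile normalization. Coro1b had 1888 and 1547 (-0.29, positive under median centring and poly-A scaling), and Coro2a had 848 and 1509 (0.83). Coro1c thus lay below Coro1a by 1.12, which shrank to 0.82 in the lowest alternative.

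Proteins that tie actin to the membrane or to adhesions held 2 of the higher genes and 0 lower ones among 7, with a median of 0.50. Over all genes 8.22% were higher and 26.2% lower. After median centring 3 were higher, beside 13.1% of all genes. Marcksl1, which encodes the MARCKS-like protein that binds actin and phosphoinositides at the membrane, read 791 in control cells and 13020 with LPS, 16.5-fold higher. The LPS signal lies near the top of the scale on that array, while a dimmer probe set, with 201 and 2295, was 11.4-fold higher. All 4 probe sets lay between 3.51 and 4.04, although all 4 are of the classes that can be shared with other transcripts, so that it had no value with plain probe sets alone. Its relative Marcks was higher by less. The brightest of its 7 probe sets had 6377 and 10332 (0.70), the lowest ratio was 0.47, and the highest came from a probe set with 3913 and 7803. The ratios of the relatives lay 3.35 apart.

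The ezrin, radixin and moesin genes, whose proteins link filaments to membrane proteins, had unequal ratios. Ezr read 358 in control cells and 1187 with LPS by its plain probe set, 3.31-fold higher. Its other probe set, of the class that can cross-hybridize, had 120 and 32.4, a ratio of -1.88, and the median of both was -0.08, so the direction of Ezr depends on the probe set. Msn had 4496 and 6343 (0.50), with 0.45 for its other probe set. Rdx had 1513 and 1536 (0.02), its 3 probe sets ran from -0.37 to 0.02, and the brightest turns negative under quantile normalization. Tln1, the gene of the integrin activator talin, had 1572 and 2150, with 3 probe sets from 0.45 to 0.87. Vcl, the vinculin gene, had 382 and 303 (-0.33), but positive under loess, median centring and quantile normalization.

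The 3 remaining filament-binding genes went separate ways. Dbnl, a drebrin-like adaptor between actin and endocytosis, read 617 in control cells and 2804 with LPS by its 1 probe set, 4.54-fold higher and past 2-fold in all 11 alternatives. Swap70, which binds filaments and Rac, had 890 and 1353 (0.60), and 0.85 by its other probe set. Tpm1, a tropomyosin that coats filaments, had 615 and 282, 2.18-fold lower, while its other measured probe set was at -0.70, and it was within 2-fold in 5 of the 11 alternatives.

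**Figure D4:**
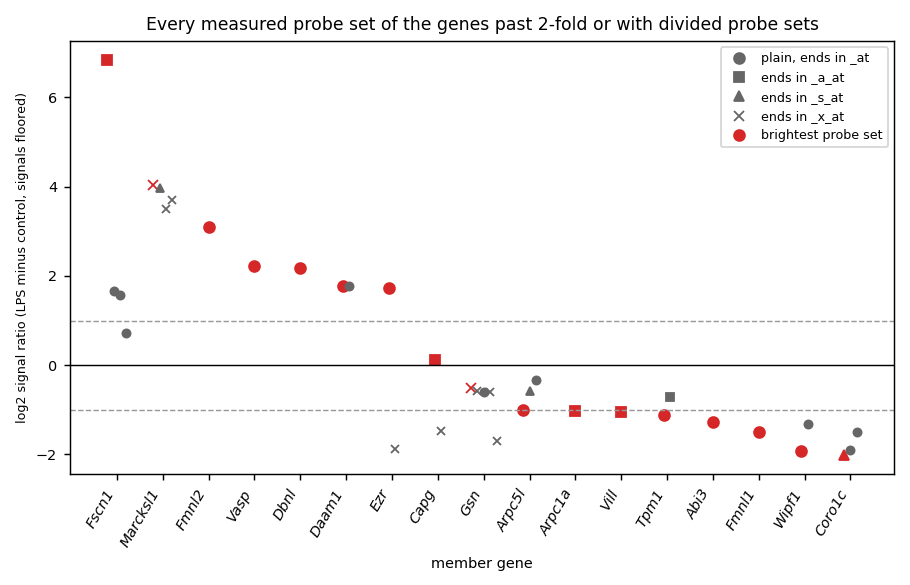
Log2 ratio of LPS over control signal (vertical axis) of every measured probe set of the 15 actin genes past 2-fold and of Capg and Gsn, whose probe sets lie more than 2-fold apart (horizontal axis), with symbols for the probe set class, red for the brightest and dashed lines at 2-fold. The probe sets of Marcksl1, Daam1 and Coro1c lie close together, whereas those of Fscn1 spread from 0.72 to 6.83 and those of Ezr lie on opposite sides of 0. The 0.72 and 6.83 of Fscn1 are bounds set by the floor.

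Probe sets of one gene gave the available check on each ratio, a technical one within the same 2 arrays. Of the 35 actin genes with 2 or more measured probe sets, 29 had probe sets that all pointed the same way. Over all 5503 such genes 77.7% did. In 4 of the 35, Fscn1, Ezr, Capg and Gsn, the probe sets lay more than 2-fold apart, against 25.2% of all such genes. Of the 15 genes past 2-fold, 8 had 2 or more measured probe sets, and these pointed 1 way in 7 of the 8, with Ezr the exception. The other 7, Fmnl2, Vasp, Dbnl, Fmnl1, Abi3, Vill and Arpc1a, rested on 1 measured probe set.

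The regulators upstream of these proteins were read from 4 lists. Of 42 measured regulator genes, 4 lay 2-fold or more higher and 12 lower, with a median ratio of -0.46, and median centring made this 7 and 7. These counts stand near the shares of all genes, 8.22% higher and 26.2% lower as deposited and 13.1% and 15.3% centred, as does the median near the -0.42 of all genes.

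Of 17 exchange factors and GTPase-activating proteins, 2 were higher and 2 lower (median -0.41), beside 8.22% and 26.2% of all genes. Arhgap45 had 1149 and 145, 7.94-fold lower, by 1 probe set. Arhgap25 had 576 and 239, 2.41-fold lower but within 2-fold under 4 of the 5 scalings. Arhgef3 and Dock10 were 2.52-fold and 2.30-fold higher, Arhgef3 by 1 probe set.

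Of 9 measured kinases and phosphatases of cofilin and myosin, 0 were higher and 3 lower (median -0.69), beside 8.22% and 26.2% of all genes. Ssh2 and Ssh1, slingshot phosphatases that switch cofilin on, had 385 and 60.5, 6.36-fold lower, and 730 and 253, 2.89-fold lower. For Ssh1 the 4 probe sets ranged from -1.53 to -0.67, and their median was within 2-fold. Limk1, the kinase that switches cofilin off, had 165 and 64.7, 2.55-fold lower but within 2-fold under quantile normalization, median centring and loess. Rock1 went against the list at 0.87, although its 5 probe sets ranged from -0.46 to 0.87.

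Of 10 measured myosin genes, 2 were higher and 3 lower (median -0.16), beside 8.22% and 26.2% of all genes. Myo1f, a membrane-bound myosin of leukocytes, had 3777 and 843, 4.48-fold lower, with 3 probe sets from -2.42 to -2.16. Myo5a and Myo9b were 2.65-fold and 2.59-fold lower but within 2-fold after median centring, and Myo1g was 2.51-fold higher by 1 probe set. MRTF coactivators of serum response factor sense free actin monomers, and the factor drives many actin genes. Of 6 genes of its pathway, Elk genes among them, 0 were higher and 4 lower (median -1.35), beside 8.22% and 26.2% of all genes. After median centring 3 were lower, beside 15.3%. Elk3 had 663 and 105, 6.34-fold lower, Mrtfb was 4.01-fold lower, and Mrtfa was 3.18-fold lower by 1 probe set. The factor itself, Srf, had 168 and 205 (0.29), with its other probe set at -0.27. The second probe set of Mrtfb was at -0.12. Elk4, at 2.04-fold lower, was within 2-fold under all 5 scalings, and Elk1 went against the list at 0.76, with its other probe set at -0.10.

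**Figure D5:**
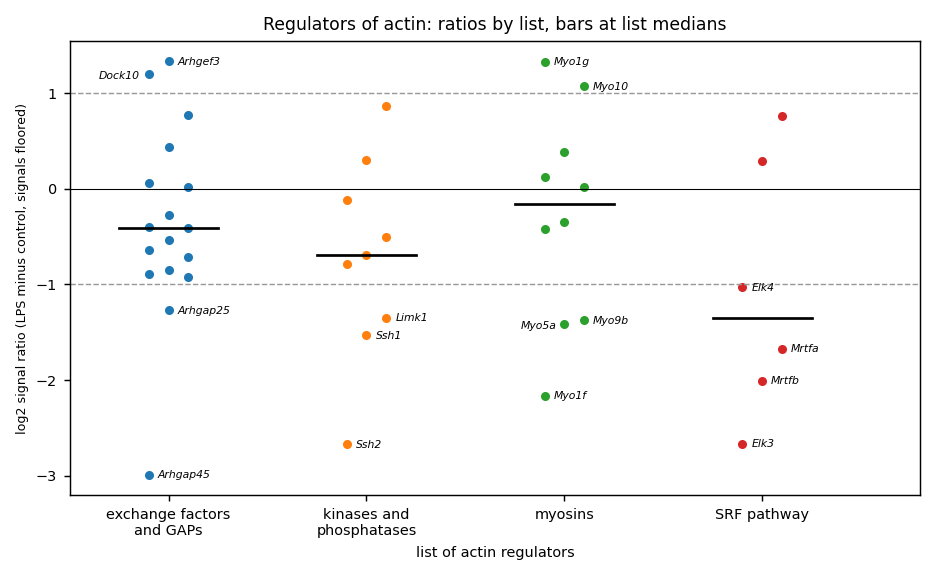
Log2 ratio of LPS over control signal (vertical axis) of the 42 measured regulators of actin in 4 lists (horizontal axis), each point 1 gene, with bars at list medians, dashed lines at 2-fold and names for the genes past it. The bar of the myosin genes lies at -0.16 and that of the serum response factor pathway at -1.35.

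Markers of other cells were read beside Fscn1, since fascin marks mature dendritic cells. Of 7 macrophage markers with a probe set, all 7 were above the floor on both arrays, with signals that summed to 39587 in control cells and 40505 with LPS. Fcgr1 was 4.02-fold higher, from 1519 to 6107, and the other 6 had ratios from -0.74 (Mertk) to 0.12 (Lyz2). Of 7 dendritic cell markers, 1 reached the floor in control cells and 3 with LPS, with summed signals of 179 and 223. Zbtb46 had 18.5 and 50.1 and Ccr7 had 20.0 and 60.5, whereas Batf3 was lower with LPS, with 71.4 and 53.3. The ratio of Batf3, -0.42, was near the median of all measured genes. Flt3, Xcr1, Dpp4 and Siglech were under the floor on both arrays. Of 8 fibroblast and stromal markers, 2 and 3 reached the floor, with summed signals of 265 and 391. Col1a1, Col3a1, Pdgfra, Dcn and Lum were under it on both arrays, and Pdgfrb had 3.97 and 170. Above it on both arrays were Acta2, with 139 and 115, and Col1a2, with 36.8 and 41.9. Of 18 neutrophil, T cell, B cell and mast cell markers, 4 reached the floor in control cells and 3 with LPS. Of 5 platelet markers, 3 reached the floor in control cells and 2 with LPS. Pf4 had 6623 and 5537, while Itga2b had 104 and 94.7, Ppbp had 51.2 and 22.3, and Gp9 and Gp1bb were under the floor on both arrays. No marker was at 0, and the part of such cells in the ratios of Fscn1 and the other genes was not tested.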

How the data were processed

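The authors deposited 1 table of linear MAS5 signal intensities, with 1 value per probe set and array, and MAS5 is named in the submitters' processing notes with no version. MAS5 summarizes each probe set from probes that match the transcript perfectly and partners with a mismatched base. For scaling target, detection calls and genome build nothing is stated in the labels. There were 45101 probe sets, 64 of them array controls. Of the others, 34945 had 1 gene in the platform annotation, 932 had several and 9160 had none listed, and only those with 1 gene were named. Arrays were grouped by their titles, 1 control and 1 LPS, and no scaling was added to the ratios. There is no p-value, and genes were counted past 2-fold. As a technical gauge, the median SD of the log2 ratios among probe sets of 1 gene was 0.28 over 4494 genes.

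Genes named are all members, and from each regulator list up to 4 past 2-fold with the largest ratios and the 1 largest against the list median. A few further ones within 2-fold were named after their values were seen. Pairs of related genes were set side by side after their values were seen. The members and lists were chosen with earlier results of these data known. One further list of regulators is not reported here. The regulator and marker genes were matched by symbol or by a synonym held by 1 gene in RefSeq (GRCm38.p6). Alternatives were a lower floor (35th percentile), a higher floor (65th percentile), no floor but a pseudocount of 16, genes above the floor on both arrays, quantile normalization, median centring, loess (span 0.4), scaling to poly-A and to hybridization controls, the median of probe sets, plain probe sets, and thresholds of 1.5-fold and 3-fold. Python 3.11.15, pandas 2.3.3, numpy 2.4.6 and statsmodels 0.14.6 were used, and the steps were tested on simulated data.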

Additional observations from a re-analysis of the deposited data

How the results depend on the processing

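The number of actin genes at least 2-fold higher was 7, and it lay between 6 and 9 in 11 of 13 alternatives. It was 12 with median centring and 12 at 1.5-fold. The number at least 2-fold lower was 8, and it was 4 with quantile normalization, 3 with median centring, 2 with loess, 3 with poly-A control scaling and 2 at 3-fold. The median log2 ratio of -0.03 became 0.39 with median centring and 0.26 with poly-A control scaling. The count lower and the sign of the median therefore depend on the scaling. Of the 15 genes past 2-fold, 8 stayed past it in every alternative that gave them a value, 6 higher (Fscn1, Marcksl1, Fmnl2, Vasp, Dbnl and Daam1) and 2 lower (Coro1c and Wipf1). Ezr turned from 1.73 to -0.078 with the median of its probe sets. No paired analysis was possible because each group has 1 array and the values come from no test. No replicate could be left out for the same reason. Dim signals limit Pfn2, Fmnl1, Vill and Abi3, and among the higher genes Fmnl2 (64.8 in control cells) and Fscn1 (20.4, under the floor). The ratio of Fscn1, 6.83, was 5.46 with the higher floor and 1.62 with the median of its probe sets, which includes bounds set by the floor. It was 2.06 with quantile normalization, where its second probe set became the brightest and stood for the gene.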
